A study of Caenorhabditis elegans with 2 samples.

Results

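The X chromosome carried 1434 of the 6892 UNC-3 binding peaks that ChIP-Seq identified in L2 larvae of C. elegans. The members are every listed peak whose interval lies on chrX, whatever its strength, and no value of the peak was used to choose them. They made up 20.8% of the 6891 peaks on the 6 nuclear chromosomes; the other 5457 nuclear peaks, on the 5 autosomes, served for comparison, and the remaining peak lies on the mitochondrial genome.

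UNC-3 is the C. elegans member of the COE (Collier/Olf/EBF) family of transcription factors. In cholinergic motor neurons it is a terminal selector, a factor that switches on and keeps on the effector genes of a mature neuron, among them acetylcholine synthesis and transport genes, receptors and ion channels. The gene table used here puts unc-3 itself on the X chromosome. X is the sex chromosome of the worm, present as a pair in hermaphrodites and singly in males. The autosomes of this species have gene-dense centres and repeat-rich arms, a division that is weaker on X.

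Both libraries came from whole worms of strain OH13990 at the L2 stage, grown at 20 °C, which make UNC-3 with GFP fused to its C-terminus from the native gene. One library was immunoprecipitated with an antibody against GFP (ab290), and the other was input DNA with no antibody. UNC-3 is made in a small set of neurons while chromatin came from whole worms, so a peak gives neither the cell type nor the number of cells in which the site was bound. There was 1 ChIP library and no replicate, so no test between samples was possible. A control immunoprecipitation from wild-type (N2) worms, which the methods mention, was not used here. Intervals below are 95% intervals for counting error only: exact Poisson for counts, Wilson for shares, binomial order statistics for medians and Newcombe for differences of shares. Neighbouring peaks are not independent, so these intervals may be too narrow.

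The list gives no read totals, so the depth of the libraries is unknown, but the depth at each summit can be read from it. Fold enrichment at a summit is the pileup (the fragments over that base) plus 1, divided by the background expected from the input plus 1. Solving this together with the p-value of the peak caller gave a whole-number pileup for 1433 of the 1434 X peaks, within 0.001 on the −log10 scale. The pileup had a median of 44 fragments on X (41 to 47) and 43 on the autosomes (42 to 45), and it ranged from 14 to 378 on X. The background was at the lowest, genome-wide value of 5.01 fragments for 772 of the 1433 X peaks (53.9%, 51.3 to 56.4%) and for 48.7% of the autosomal peaks (47.3 to 49.98%), a difference of 5.22 percentage points (2.31 to 8.11). At that background the shallowest X peaks, 4 in number, had 14 fragments at the summit and 2.50-fold enrichment. Shallower sites at that background are not in the list; over a higher background, X peaks of lower fold enrichment were listed.

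UNC-3 peaks were denser on X than on the pooled autosomes. X carried 81.2 peaks per Mb (77.1 to 85.5) of the length that its last peak closes, and the autosomes 66.1 per Mb (64.4 to 67.9), a ratio of 1.23 (1.16 to 1.30). This density was not particular to X: chromosome III had 80.7 peaks per Mb and chromosome I 79.2, and the ratio of X to III was 1.01 (0.930 to 1.09). Chromosomes II, IV and V had 67.6, 60.2 and 51.0 peaks per Mb. Peaks covered 900 kb of X, or 5.10% of its length, against 4.02% of the autosomes.

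Counted per protein-coding gene, X stood above each autosome. When genes of every biotype were counted it stood below I and III and above the others. The gene table puts 2730 protein-coding genes on X, which gives 0.525 peaks per gene (0.498 to 0.553), compared with 0.317 (0.308 to 0.325) over the 17241 autosomal genes. The ratio was 1.66 (1.56 to 1.76). Chromosomes III and I came next with 0.421 and 0.415 peaks per gene, and the ratio of X to III was 1.25 (1.15 to 1.35). Chromosome V was lowest at 0.214. With all genes of the table, non-coding RNA genes and pseudogenes included, X had 0.238 peaks per gene (0.226 to 0.251). This was below III with 0.288 (0.271 to 0.305) and I with 0.284 (0.268 to 0.300), and the ratio of X to III turned to 0.827 (0.764 to 0.895). X stayed above II (0.197), V (0.136), IV (0.0534) and the pooled autosomes (0.134). The table puts 19704 genes of any biotype on IV, which lowers the values of IV and of the pooled autosomes. These are ratios of totals, because the table is of another assembly than the peaks and no peak was assigned to a gene. X held 155 protein-coding genes per Mb and the autosomes 188 to 239, the genes being those of the table and the lengths those spanned by the peaks.

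**Figure D1:**
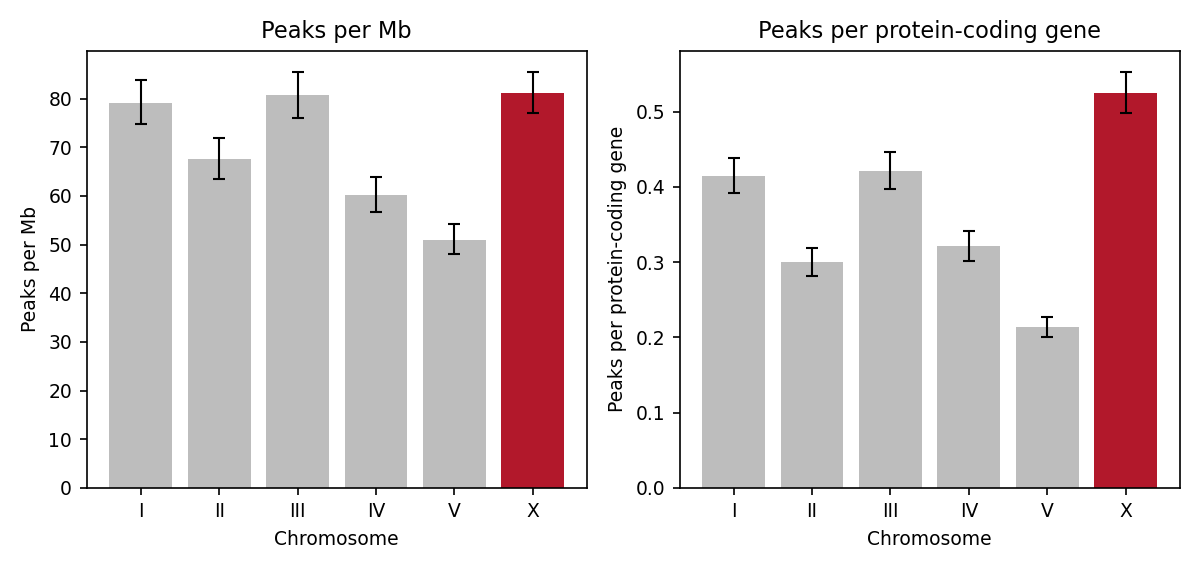
UNC-3 peaks per Mb (left) and per protein-coding gene (right) on each nuclear chromosome; bars start at 0 and error bars are 95% exact Poisson intervals on the peak count. X (red) is level with chromosomes I and III per Mb, at 81.2 peaks, and highest per protein-coding gene, at 0.525.

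The position of the summit assigned each peak to a bin of 0.5 Mb, which divides X into 35 whole bins and a partial last one. The whole bins held between 16 and 67 peaks, with a median of 40 and quartiles of 36.5 and 45. The 162 whole autosomal bins ranged from 4 to 74, with a median of 33 and quartiles of 21 and 44.75. On X, 30 of the 35 bins (85.7%) lay above the autosomal median. The partial bin at the right end held 14 peaks over 156.9 kb, or 89.2 per Mb (48.8 to 149.7).

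By the share of bins near the median and by the variance of the bin counts, X peaks were spread more evenly than those of each autosome. The range from the fullest to the emptiest whole bin did not set X apart from III. It was 4.19-fold on X, 4.11-fold on III and 5.21-fold to 13-fold on the other autosomes. Of the X bins, 28 of 35 (80%) lay within 25% of the X median, a window chosen after the counts were seen. Within 25% of their own chromosome's median lay 55.9% of the bins on IV, 53.3% on I, 48.1% on III, 24.4% on V and 23.3% on II. Bins with fewer than 20 peaks numbered 1 on X and 33 on the autosomes (20.4%), and bins with more than 50 numbered 3 on X and 17 on the autosomes (10.5%), counts that take no account of the mean of each chromosome. The variance of the bin counts divided by their mean, which is 1 for points placed independently at a uniform rate, was 2.48 on X. It was 4.08 on chromosome IV, 4.999 on I, 5.54 on III, 7.02 on V and 7.73 on II. X remained the lowest of the 6 chromosomes under stricter q-values, bins of 0.25 and 1 Mb, bins shifted by 0.25 Mb, and without the outermost whole bins. In the middle segment of each chromosome cut into 3, X had a ratio of 0.749 over 11 bins and the autosomes 1.30 to 3.31 over 8 to 13 bins. The ratios over whole chromosomes rest on 27 to 41 bins each, of 1 library, and no ratio was given an interval. Whether X (35 bins) differs from IV (34 bins), the nearest autosome, was not tested.

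**Figure D2:**
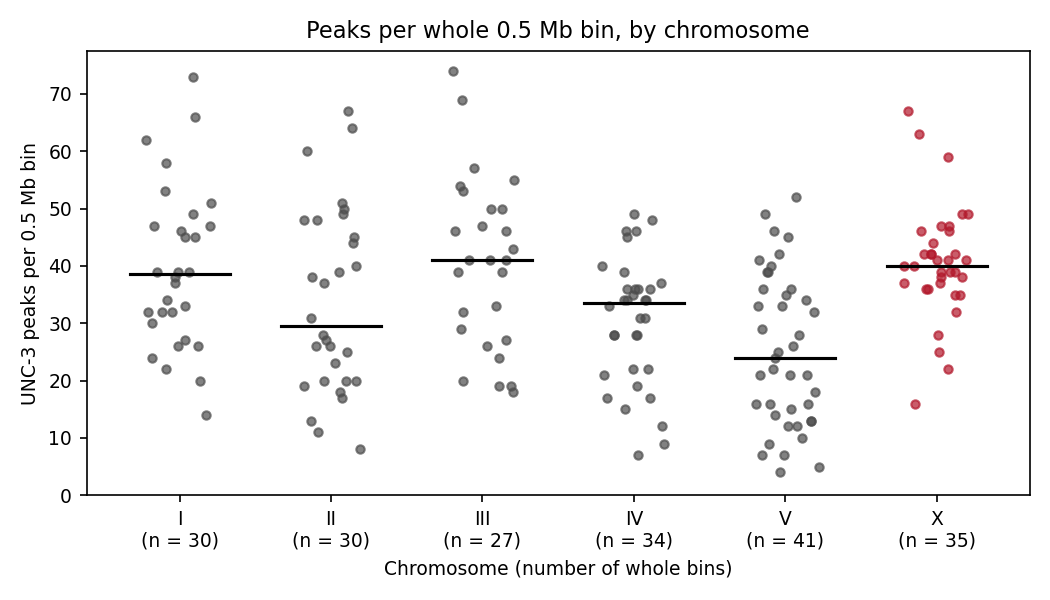
UNC-3 peaks in each whole 0.5 Mb bin (points, spread sideways for visibility) by chromosome, with the median of each chromosome as a black line. The X bins (red) gather around their median of 40, and a single X bin holds fewer than 20 peaks.

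The densest stretches of X lay in its left part. Bin 6 (chrX:2500001-3000000, ce10) held 67 peaks (51.9 to 85.1), bin 9 (chrX:4000001-4500000) 63 (48.4 to 80.6) and bin 10 (chrX:4500001-5000000) 59 (44.9 to 76.1). Bins 9 and 10 adjoin and together carried 122 peaks over 1 Mb. The 3 bins contained 189 peaks, 13.2% of all X peaks. Of the 162 whole autosomal bins 4 held 67 peaks or more, and of the 35 whole X bins bin 6 alone did. From bin 11 to bin 34, a run of 24 bins picked out after its values were seen, every count lay between 28 and 49.

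The emptiest whole bins were at or near the ends. Bin 1 (chrX:1-500000) held 16 peaks (9.15 to 25.98), bin 35 (chrX:17000001-17500000) 22 and bin 4 (chrX:1500001-2000000) 25. These bins and the densest ones were ranked on the counts given here, so the gap between them is a description. Cut into 10 segments of equal length, X had from 7.46% of its peaks in segment 1 to 12.9% in segment 3, a ratio of 1.73 between the fullest and the emptiest. That ratio was 2.41 on chromosome I, 2.69 on III, 3.28 on IV, 4.47 on II and 4.53 on V.

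Fold enrichment and peak density were close to uncorrelated over the X bins. Across the 35 bins the Spearman correlation of the peak count and the median fold enrichment was 0.010, a description over bins of 1 library. Over the 162 whole autosomal bins it was 0.197. Neither value was given an interval, and whether they differ was not tested. Every whole X bin, bin 1 included, had at least 1 peak of 20-fold or more, a level that 11.3% of all nuclear peaks reached, and the lowest bin maximum was 20.1-fold, in bin 4. The bin medians ran from 4.82 in bin 13 to 11.7 in bin 2. Bins 2 and 3 (chrX:500001-1500000), singled out after their values were seen, had medians of 11.7 and 11.5. In them 41 of 76 peaks (53.9%, 42.8 to 64.7%) reached 10-fold, compared with 465 of the 1358 other X peaks (34.2%) and 32.7% of all nuclear peaks. Their counts of 35 and 41 peaks were close to the X median. Medians of 10 or more were found in 4 of the 35 X bins and in 6 of the 162 autosomal bins. Bins 12 and 30 of X both had a median of 10.1, and 50% and 51.2% of their peaks reached 10-fold. The highest median of an autosomal bin was 11.64, and 1 autosomal bin had a median above that of bin 3.

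**Figure D3:**
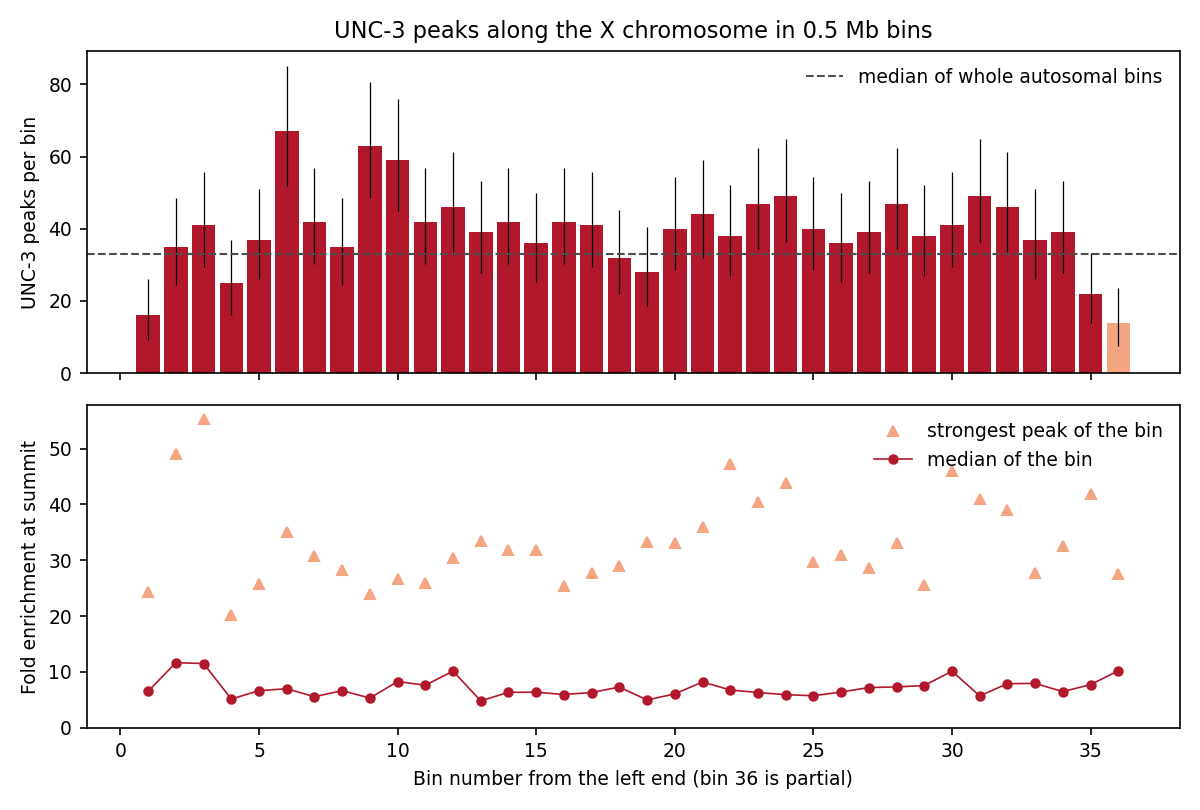
Peaks per 0.5 Mb bin along X with 95% exact Poisson intervals and the median of the autosomal bins as a dashed line (top), and the median and the highest fold enrichment of each bin (bottom). The bins of 67, 63 and 59 peaks stand out in the top panel, and bins 2 and 3 have the highest medians and the highest maxima in the bottom panel; the pale last bar is the partial bin.

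Neighbouring X peaks lay a median of 5353 bp apart (4725 to 5906), measured from edge to edge, and autosomal peaks 5734.5 bp (5351 to 6086). The distance to the nearest peak on either side was 2198.5 bp on X (1962 to 2356) and 2093 bp on the autosomes (1982 to 2184). At the middle of the distribution the intervals overlap, and X differed in the tail of long distances. The longest 10% of gaps began at 29949 bp on X and at 37133 bp on the autosomes, and the longest 1% at 68788 bp and 114310 bp. Chromosome I had a similar value to X for the longest 10%, 29660.5 bp, and chromosome III for the longest 1%, 69586 bp.

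Isolated peaks were fewer on X. No other peak lay within 20 kb of 50 X peaks (3.49%, 2.65 to 4.57%), compared with 372 autosomal peaks (6.82%, 6.18 to 7.52%), a difference of −3.33 points (−4.42 to −2.07). The autosomes ranged from 5.04% on III to 9.28% on V. Within 10 kb the shares were 14.2% on X and 16.5% on the autosomes, with chromosomes I, II and III between 14.57% and 15.02%.

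The longest stretch of X without a peak was 139130 bp long (chrX:117543-256672), in the sparse first bin. The next were 134716 bp (chrX:10226263-10360978), 129556 bp (chrX:12692198-12821753), 115115 bp (chrX:1637145-1752259) and 107818 bp (chrX:7334824-7442641). On each autosome the longest stretch was longer than on X, from 174416 bp on III to 476743 bp on V. At q-values of 1e-5 or lower the longest X stretch became 174428 bp.

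**Figure D4:**
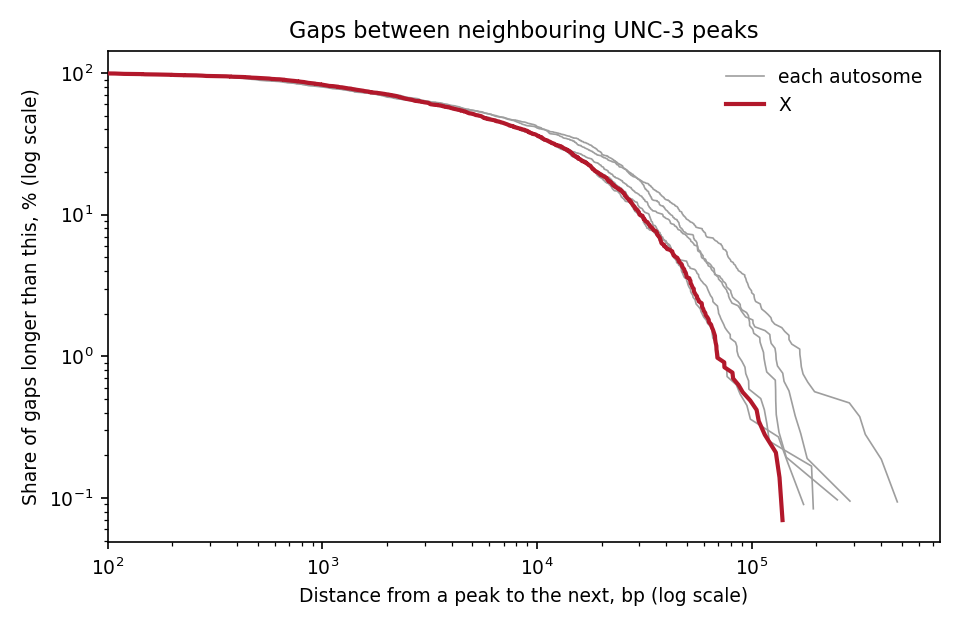
Share of gaps between neighbouring peaks that are longer than a given distance, both axes logarithmic, for X (red) and each autosome (grey); distances under 100 bp are not drawn. The curves run close together at short distances, and the X curve ends first, at 139130 bp.

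At 1 kb, close spacing did not set X apart. Another peak lay within 1 kb of 441 X peaks (30.8%, 28.4 to 33.2%), where the share over all nuclear peaks was 31.8%. The difference from the autosomes (32.1%) was −1.37 points, with an interval from −4.02 to 1.36. At a distance of 500 bp the share was lower on X, at 14.2% against 16.7% on the autosomes, a difference of −2.54 points (−4.52 to −0.406), and single autosomes ranged from 15.2% to 19.4%. Joined wherever the next peak lay within 1 kb, the X peaks formed 150 pairs, 31 chains of 3, 7 of 4 and 4 of 5, and 993 stood alone. Chains of 3 or more took in 141 X peaks (9.83%, 8.397 to 11.48%) and 641 autosomal peaks (11.7%, 10.9 to 12.6%). The longest chain had 5 peaks on X and 7 on the autosomes.

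The 4 chains of 5 peaks differed in make-up. The first (chrX:16997122-17004938) had fold enrichments of 15.8, 19, 7.82, 5.44 and 41.9 from left to right, the last being the seventh strongest peak of the chromosome. The second (chrX:10392063-10397304) also ended in its strongest member, with 15.8, 7.82, 5.99, 5.32 and 36. Another chain (chrX:1597849-1602600) had no strong member, with values from 4.48 to 8.09. The remaining one (chrX:13195864-13200183) held peaks of 21.5 and 20 among 3 of 4.89 to 6. In the 249 adjacent X pairs within 1 kb, the stronger peak had a median of 12.97-fold and the weaker of 4.91-fold, and in 125 (50.2%) they differed at least 2-fold. On the autosomes this share was 49.7%.

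On X, peaks with a close neighbour were hardly stronger than the others. The median was 7.15-fold (6.32 to 7.65) with another peak within 1 kb and 6.82-fold (6.49 to 7.32) without. On the autosomes the values were 7.44 (6.99 to 7.82) and 6.45 (6.21 to 6.65), intervals that do not overlap. The direction was the same on both. The X sets were smaller, 441 and 993 peaks against 1753 and 3704, which widens their intervals. Whether the difference itself was smaller on X was not tested. Peaks of 10-fold or more made up 37.4% of the X peaks with a close neighbour and 34.3% of those without, and 37.8% and 29.3% on the autosomes. The fold enrichments of neighbours in order were close to uncorrelated on X, with a Spearman coefficient of 0.022 over its peaks, and −0.031 to 0.102 on the autosomes.

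Fold enrichment on X had a median of 6.86 (6.49 to 7.32), quartiles of 4.32 and 13.5, and a range from 1.97 to 55.2. The autosomal median was 6.68 (6.49 to 6.93), with chromosome medians from 6.32 on V to 6.99 on I, so the median of X lay among those of the autosomes. A fold enrichment of at least 10 was reached by 506 X peaks (35.3%, 32.9 to 37.8%), where the share over all nuclear peaks was 32.7%. On the autosomes it was 32.1% (30.8 to 33.3%), from 30.6% on V to 33.4% on I, and the difference between X and the autosomes was 3.24 points (0.502 to 6.03). A fold enrichment of at least 20 was reached by 177 X peaks (12.3%, 10.7 to 14.1%) with 11.3% over all nuclear peaks, and here the difference from the autosomes was 1.26 points with an interval from −0.563 to 3.23. Peaks under 3-fold made up 5.02% on X and 4.78% on the autosomes. A larger share of X peaks than of autosomal peaks lay at the genome-wide background, and among those peaks alone the medians were 6.49 on X and 6.32 on the autosomes. Of the X peaks, 73.2% had a q-value of 1e-10 or lower, as had 72.7% of the autosomal peaks.

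X peaks were slightly wider. Their median width was 548 bp (529 to 561), with quartiles of 413 and 731 bp, and the autosomal median was 518 bp (511 to 525). The autosome medians ran from 508 bp on IV to 526 bp on II, all below that of X, but the intervals of I, II, III and V, such as 511 to 539 bp on II, overlapped that of X; the interval of IV, 494 to 528 bp, did not. Stronger peaks were wider on every chromosome, with a Spearman coefficient of 0.807 on X, so widths were also compared within 4 strata of fold enrichment, cut at the quartiles of all nuclear peaks. From the weakest to the strongest stratum, the X medians were 356, 466, 577 and 798.5 bp, and the autosomal medians 346, 445, 554.5 and 776 bp. The X median was the larger in each stratum, and the intervals did not overlap in stratum 2 (453 to 475 against 439 to 450) and stratum 3 (567 to 596 against 548 to 562). These are values of the pooled autosomes, and X was not compared with single autosomes within the strata. Peaks of 1000 bp or more numbered 126 on X (8.79%) and 408 on the autosomes (7.48%), a difference of 1.31 points with an interval from −0.230 to 3.02. Chromosome V was close to X, at 8.72%. The narrowest width in the list, 291 bp, was shared by 36 X peaks. The summit lay within 50 bp of the centre of the interval in 70.6% of X peaks and 73.8% of autosomal peaks, a difference of −3.26 points (−5.93 to −0.673), and chromosome V was lower than X at 70.3%.

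**Figure D5:**
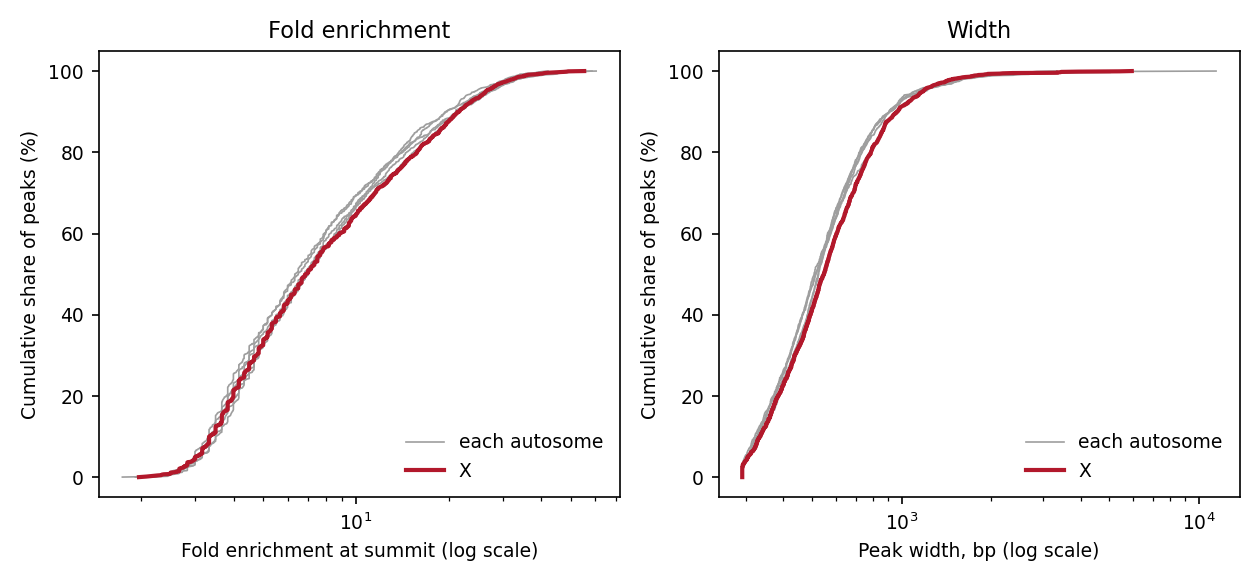
Cumulative share of peaks by fold enrichment at the summit (left) and by width (right), on logarithmic horizontal axes, for X (red) and each autosome (grey). In fold enrichment the X curve runs among or just to the right of the autosomes, with a median of 6.86, and in width it is shifted to the right around its median of 548 bp.

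The strongest X locus (chrX:1181099-1182245) was bound 55.2-fold over background, with a pileup of 352 fragments, and ranked 4 among all nuclear peaks. The second (chrX:991977-993863) reached 48.9-fold with 378 fragments, the highest pileup on X, and the third (chrX:1063692-1064824) 48.4-fold with 297. These 3 lay within 190269 bp of each other in bins 2 and 3. That span held 24 peaks, of which 14 reached 10-fold. It was drawn between the 3 strongest peaks, so these are among the 14 by construction. Over all of X 35.3% of peaks reached 10-fold, and over all nuclear peaks 32.7%.

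The remaining 7 of the 10 strongest were in the right part of the chromosome, from bin 22 to bin 35. They had fold enrichments of 47.2 (chrX:10555087-10556042), 45.9 (chrX:14707793-14708759), 43.7 (chrX:11605248-11606688), 41.9 (chrX:17003184-17004938), 41.0 (chrX:15353541-15354590), 40.8 (chrX:10717079-10718794) and 40.4 (chrX:11471720-11473909). Pileups in the 10 ranged from 244 to 378 fragments. Of the 10, 4 lay at the genome-wide background, as did 53.9% of the solved X peaks. The 10 were 956 to 2190 bp wide, with a median of 1294 bp. Another peak lay within 1 kb of 5 of the 10, and of 30.8% of all X peaks. None of the 3 densest bins held any of the 10. The strongest peaks there were 35.1-fold in bin 6, 24.0-fold in bin 9 and 26.6-fold in bin 10. These bins hold 13.2% of X peaks, so the 10 strongest are too few to tell whether such peaks are rarer there. Peaks of 10-fold or more made up 32.8% of bin 6, 25.4% of bin 9 and 35.6% of bin 10. The share was 35.3% over all of X and 32.7% over all nuclear peaks.

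Among the 100 nuclear peaks of highest fold enrichment 19 lay on X, close to its share of all peaks. The autosomes contributed 20 (III), 19 (V), 18 (I), 16 (IV) and 8 (II). X held 10 of the top 50, 48 of the top 250 and 233 of the top 1000 (23.3%). Ranked by q-value or by pileup, 16 of the top 100 were on X.

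The widest X peak spanned 5949 bp (chrX:16929147-16935095), with 32.6-fold enrichment at its summit and a background of 5.63 fragments. Only 82 bp separated it from the next peak, which was 3426 bp wide and 5.32-fold. The second widest, added after its values were seen, was 5403 bp (chrX:109030-114432) and 6.45-fold, over a background of 25.5 fragments. The first listed peak began at the first base of the chromosome (chrX:1-435) and was 6.29-fold, and the last (chrX:17656605-17656900) was 3.70-fold. The weakest X peak, also added later (chrX:1636851-1637144), at the left edge of the peak-free stretch of 115115 bp, had 1.97-fold enrichment with 55 fragments over a background of 27.4.

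One X peak, singled out after its values were seen, had no solution within the tolerance (chrX:6892558-6893403). It was 846 bp wide and 6.23-fold, which placed it 3710th by fold enrichment, while its −log10 q-value of 402.0 placed it 15th. The nearest whole-number solution was a pileup of 935 fragments over a background of 149, with a misfit of 0.0176 on the −log10 p scale. That background was 29.8 times the genome-wide value, where the next highest on the nuclear chromosomes was 33.8 fragments, or 6.75 times. 

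The study lists 69 genes as direct UNC-3 targets, as unc-3-dependent or as putative targets tested with reporters. By the gene table, X holds 15 of these genes (21.7%) and 13.7% of protein-coding genes. It carries 20.8% of the nuclear peaks. The 21.7% was given no interval, and whether it differs from either of the other shares was not tested. The study chose these genes, in part on these libraries, so the 21.7% is a description of its lists. Of the 10 direct targets known before, acr-2, which encodes an acetylcholine receptor subunit, and del-1, a sodium channel subunit of the DEG/ENaC family, are on X. Of the 43 unc-3-dependent terminal identity genes, 9 are on X. They include the potassium channel genes slo-2 and kvs-1, the GABA receptor gene gbb-1, the dopamine receptor gene dop-1 and the neuropeptide gene flp-18. The others are tmc-1, a transmembrane channel-like gene, mig-13, a cell migration gene, ddr-2, a discoidin domain receptor gene, and F29G6.2. The 16 transcription factor genes tested with reporters were picked from the peaks of these libraries as putative targets, and being listed does not mean that UNC-3 controls them. On X are 4 of them: the nuclear hormone receptor genes nhr-1 and nhr-40 and the zinc finger genes ztf-13 and ztf-14. In the study, reporters of the second peak of nhr-1 and of nhr-40 were positively regulated by unc-3. The first peak of nhr-40 was not dependent on unc-3, and that of nhr-1 was not determined. Reporters of ztf-13 and ztf-14 gave no expression. Peaks were not matched to these genes here, because the table and the peaks are of different assemblies. The study itself reports peaks at most of the direct targets and of the unc-3-dependent genes, over all chromosomes.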

How the data were processed

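ChIP and input DNA from whole L2 worms were sequenced by the authors, who mapped reads to ce10 with Bowtie2 and identified peaks with MACS2 on the single ChIP library against its input. Both had versions not given in the sources used here, and the q-value cutoff is stated as 0.05 in one place and as 0.005 in another; the largest q-value of an X peak was 0.0125, and 6 exceeded 0.005. For each peak the authors deposited a fold enrichment (a ratio), p- and q-values as −log10, the interval and the summit. The score they deposited beside these was not used. No further filter was applied, and 0 columns were left unmapped.

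Counts, spacing, bins and intervals came from Python (3.11.15) with pandas (version 2.3.3), numpy (version 2.4.6) and scipy (version 1.17.1), and figures from matplotlib (version 3.10.9). The solving for the pileup was tested on values simulated with the same formula, and the joining into chains on a small made-up set. The other steps were not tested in this way. The pseudocount of the fold enrichment was taken as 1, and a background within 0.5% of the lowest counted as genome-wide. Bins started at the first base. Coordinates are ce10, counted from 1. The gene table (RefSeq, WBcel235) served for names, biotypes and chromosomes only, and no sequence was used here. All 69 listed genes were matched in it by symbol or locus tag.

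Loci named were the 10 strongest, the widest, the first and the last X peak, the 3 densest and 3 emptiest bins, the 5 longest gaps and the longest chains; others are marked as chosen later. The members, lists and comparisons were chosen with earlier results of these data known. Alternatives were stricter q-values, other bin sizes and positions, other distances, ranks and tolerances, and all genes in place of protein-coding ones.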

Additional observations from a re-analysis of the deposited data

How the results depend on the processing

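No paired analysis was possible because there was 1 ChIP library, and no replicate could be left out. Of 81 alternative values 54 stayed within their counting interval or within 1.5 times the count, 26 moved and 1 reversed. With q-values of 1e-5 and 1e-10 or lower, the X share with another peak within 1 kb was 27.8% and 25.3%, the median width 568.5 and 628.5 bp, the median fold enrichment 7.49 and 9.65, and the share of 10-fold or more 38.5% and 48.2%; these thresholds remove weak peaks by construction. With 500 bp and 2 kb in place of 1 kb the share with a close neighbour was 14.2% and 48.0%, and with 20-fold in place of 10-fold the share of strong peaks was 12.3%. X held 10 of the 50 and 48 of the 250 strongest peaks. With all genes of the table in place of protein-coding ones, X had 0.238 peaks per gene, below chromosomes I (0.284) and III (0.288) and above the other autosomes. The log2 ratio of X to III, added after the data were seen, turned from 0.32 to −0.27. That of X to the pooled autosomes went from 0.73 to 0.83. The variance-to-mean ratio of X, 2.48, was 0.749 in the middle segment of the chromosome cut into 3, an alternative added after the data were seen, and 1.80 to 3.13 under the others. The X minus autosome difference in width was 30 bp, and 35 and 45.5 bp under the stricter q-values. A planned search of promoters for the COE motif was not run. Depth limits the list to summits of at least 14 fragments at the genome-wide background, and without replicates no value here has a biological error.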

Other observations

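Of 10 segments of equal length, segment 1 had a median fold enrichment of 9.44 (7.15 to 11.8) over 107 peaks and segment 9 had 8.65 (6.76 to 10.1) over 158, while the others had medians from 6.15 to 7.73. In segment 1, 48 peaks (44.9%, 35.8 to 54.3%) and in segment 9, 67 (42.4%, 34.97 to 50.2%) reached 10-fold, compared with 35.3% over all of X. The highest medians of a segment on the autosomes were 8.59 on I, 8.48 on IV and 8.31 on II. The intervals overlap widely, and segments 1 and 9 were singled out after their values were seen.

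High background was rare on X, and the peaks named here were singled out after their values were seen. It exceeded 10 fragments at 27 X peaks (1.88%, 1.30 to 2.73%) and at 125 autosomal peaks (2.29%, 1.93 to 2.72%), from 1.68% on I to 3.37% on V. The highest solved on X was 31.8 fragments, under a peak 3925 bp wide (chrX:15807401-15811325) with 240 fragments and a fold enrichment of 7.34. The next was 29.1 fragments under a peak of 3338 bp in the sparse first bin (chrX:291971-295308), which was 5.27-fold.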
